A study of Mus musculus with 2 samples.

Results

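Open chromatin was examined at 9 mouse genes for transcriptional corepressors and their partners in newborn thymus: Gse1, Zfp217, Bcor, Rere, Hdac7, Rcor1, Ncor1, Bcorl1 and Hdac1. They are 9 of the 21853 protein-coding genes annotated on the main chromosomes, and all 9 were found in the annotation. The list was drawn up with results of these libraries already known, and its leading genes were chosen by their number of distal peaks. That number is therefore given as a description, without a test. A peak was taken as a promoter peak of a gene when its midpoint lay within 1000 bp of a coding transcription start site (TSS) of that gene. All peaks farther than that from every coding TSS were called distal and went to the gene with the nearest coding TSS, up to 100 kb away.

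The tissue was whole thymus of B6NCrl mice at age 0 days after birth, from pooled males and females labelled healthy, with no treatment or engineered allele in the labels. DNase-seq, which sequences the places where DNase I cuts accessible DNA, was carried out on 2 biological replicates of this 1 group. They were labelled with 1 donor and different biosamples. As males and females were pooled, that donor label cannot stand for 1 animal. The labels do not tell how much of the spread between the replicates is technical. The lists held 154812 peaks and 135932 hotspots in replicate 1, against 139702 peaks and 121064 hotspots in replicate 2, and the read depth behind them is unknown. Hotspots are the wider enriched regions deposited beside the peaks. Promoter peaks were present in both replicates at all 10 thymocyte marker genes checked, among them Cd3e, Cd4, Cd8a, Lck and Rag1, and at 0 of 3 liver genes (Alb, Apoa1 and Ttr). Of 5 thymic epithelial genes only Ly75 had one, and Foxn1, Psmb11, Krt5 and Krt8 had none in either replicate. Promoter peaks in both replicates were also found at 2 of 3 neuronal genes (Snap25 and Rbfox3) and 2 of 3 mesenchymal genes. The count was 2 of 4 for myeloid, 2 of 4 for endothelial, 1 of 4 for B cell and 1 of 3 for erythroid genes. Over all protein-coding genes the share was 62.2%, so these counts do not show which other cell types were present. In a whole organ, a site open in fewer cells and a site less open in every cell cannot be told apart.

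Most corepressors do not bind DNA selectively themselves. They are recruited by transcription factors and bring enzymes that remove acetyl or methyl groups from histones or add ubiquitin to them. CoREST, encoded by Rcor1, is the scaffold that joins the demethylase LSD1 to the class I deacetylases HDAC1 and HDAC2. GSE1, a coiled-coil protein, and ZNF217, the human counterpart of the zinc finger protein encoded by Zfp217, copurify with that complex in human cells. BCOR was found as a corepressor of BCL6 and is a subunit of a variant Polycomb complex, and BCORL1 is its paralogue. NCOR1 represses with nuclear receptors through HDAC3, RERE is an atrophin family protein that binds class I deacetylases, and HDAC7 is a class IIa deacetylase that is abundant in thymocytes.

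The strongest distal peaks of 5 members are shown first, those of the 4 genes with the most distal peaks and that of Hdac7, which had the highest distal score in replicate 1. Each is the peak of replicate 1 with the highest mean score over both replicates. Each peak shown is 150 bp wide, and all sequences are the plus strand of GRCm38 (mm10), 5′ to 3′. Capitals mark every match to any of 11 consensus words searched on both strands. For the RUNX family of transcription factors the word searched was TGTGGT. For ETS factors, which are abundant in lymphocytes, it was AGGAAG. E proteins and their partners were represented by an E-box word, CAGCTG. The other E-box word searched, also read by zinc finger repressors, was CACCTG. The word for the TCF/LEF factors of Wnt signalling was CTTTGA. For the GATA family of zinc finger factors the letters were AGATAA. The AP-1 word, for dimers of Fos and Jun proteins, was TGANTCA. For SP and KLF factors, common at promoters, it was GGGCGG. The NFY word, found in many promoters, was CCAAT. The core words of CTCF and NRF1 were longer. Matches of different words could overlap each other, and a match is a description of letters, not a bound site.
Gse1, intron, chr8:120538696-120538845: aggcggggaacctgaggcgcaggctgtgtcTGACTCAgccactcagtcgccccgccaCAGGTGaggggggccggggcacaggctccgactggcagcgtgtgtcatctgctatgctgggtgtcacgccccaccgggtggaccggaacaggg
Zfp217, intergenic, chr2:170184696-170184845: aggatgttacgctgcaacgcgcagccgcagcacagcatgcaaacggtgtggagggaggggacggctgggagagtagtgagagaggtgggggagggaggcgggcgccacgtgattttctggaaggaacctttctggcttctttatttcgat
Bcor, intron, chrX:12088916-12089065: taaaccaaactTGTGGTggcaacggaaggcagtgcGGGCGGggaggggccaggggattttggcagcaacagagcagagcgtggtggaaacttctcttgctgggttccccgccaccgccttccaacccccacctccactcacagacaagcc
Rere, intron, chr4:150544996-150545145: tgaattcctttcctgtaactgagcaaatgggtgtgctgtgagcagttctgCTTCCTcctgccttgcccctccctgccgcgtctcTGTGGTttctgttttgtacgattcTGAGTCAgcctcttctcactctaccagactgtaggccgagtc
Hdac7, intron, chr15:97825176-97825325: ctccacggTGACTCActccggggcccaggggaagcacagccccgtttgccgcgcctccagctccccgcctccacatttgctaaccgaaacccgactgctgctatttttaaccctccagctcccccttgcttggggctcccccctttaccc
The Gse1 peak holds AP-1 and E-box words and overlaps 59 bases of the microRNA gene Mir7687, which lies within Gse1. The Rere peak holds RUNX, ETS and AP-1 words together, the Bcor peak RUNX and SP/KLF words, the Hdac7 peak the AP-1 word, and the Zfp217 peak none of the 11.

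The strongest promoter peaks of 4 members follow, those with the highest scores in replicate 1. All 4 lie on the upstream side of a coding TSS of the member. The Ncor1 peak, which scored 126 and 140, is not shown, though in replicate 2 it scored above all of these but Rcor1. It holds the SP/KLF word and no NFY word.
Rcor1, chr12:111039116-111039265: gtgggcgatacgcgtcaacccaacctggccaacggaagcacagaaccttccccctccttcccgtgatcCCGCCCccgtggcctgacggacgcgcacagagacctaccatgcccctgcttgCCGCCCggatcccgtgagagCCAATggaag
Hdac1, chr4:129542736-129542885: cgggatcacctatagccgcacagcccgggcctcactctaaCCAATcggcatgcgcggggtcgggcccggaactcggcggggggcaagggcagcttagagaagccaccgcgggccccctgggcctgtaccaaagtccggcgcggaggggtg
Rere, chr4:150281476-150281625: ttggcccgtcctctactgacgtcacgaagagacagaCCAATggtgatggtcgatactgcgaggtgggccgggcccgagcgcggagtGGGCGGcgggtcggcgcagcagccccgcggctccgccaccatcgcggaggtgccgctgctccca
Zfp217, chr2:170131316-170131465: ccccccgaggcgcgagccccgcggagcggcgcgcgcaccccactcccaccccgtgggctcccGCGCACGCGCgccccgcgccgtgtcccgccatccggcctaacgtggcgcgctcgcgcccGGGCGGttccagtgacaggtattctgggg
NFY words mark 3 of these, all but Zfp217, which has the NRF1 word. SP/KLF words mark all but Hdac1. Between 13 and 27 CpG dinucleotides lie in each of these 150 bp.

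All 9 had at least 1 promoter peak in both replicates, beside 62.2% of all protein-coding genes, and all 9 had at least 1 distal peak found in both replicates, beside 65% of all protein-coding genes. The score that the authors deposited with each peak is a whole number from 1 to 150, used here to rank peaks within a list. It placed the strongest promoter peak of Rcor1 at 142 in replicate 1 and 145 in replicate 2, above 99.95% and 99.88% of peaks. The strongest promoter peak of Hdac1 scored 131 and 137, that of Zfp217 129 and 139, that of Rere 129 and 135, and that of Ncor1 126 and 140. The strongest of Hdac7 scored 119 and 126, of Bcorl1 114 and 124, of Gse1 106 and 128 and of Bcor 83 and 92. Bcor was the lowest in both replicates, and replicate 2 gave the higher score at all 9. In rank within the list, however, Rcor1, Hdac1 (98.56% and 98.49%) and Rere (98.15% and 97.98%) stood lower in replicate 2. The other members ranked higher there. The same comparison over all promoter peaks was not made. At Gse1 the strongest promoter peaks of the 2 replicates lay 240 bp apart and did not overlap.

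Distal shared peaks, those of replicate 1 that overlap a peak of replicate 2 by at least 1 bp, numbered 85 at Gse1, 51 at Zfp217, 49 at Bcor and 48 at Rere. They numbered 14 at Hdac7, 10 at Rcor1, 8 at Ncor1, 7 at Bcorl1 and 2 at Hdac1. The first 4 genes held 233 of the 274, and the median member had 14, beside a median of 1 over all protein-coding genes. These counts helped to choose the list, so they support nothing about it. Rcor1 and Hdac1 combined high promoter scores with few distal peaks, Zfp217 and Rere combined high promoter scores with many, and Bcor had many with the lowest promoter score.

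**Figure D1:**
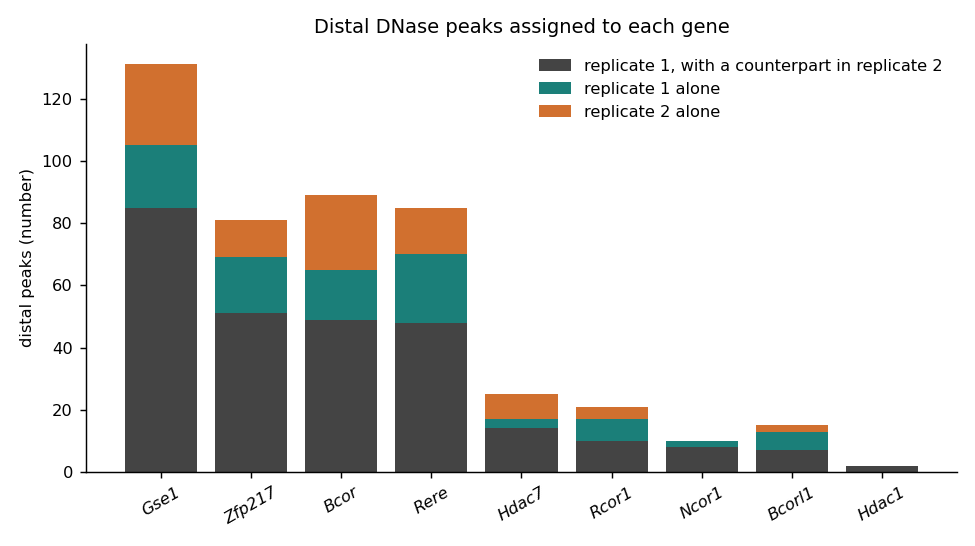
Number of distal DNase peaks (y axis) assigned to each of the 9 genes (x axis), stacked as peaks of replicate 1 with a counterpart in replicate 2, peaks of replicate 1 alone and peaks of replicate 2 alone. Gse1 has 85 with a counterpart and Hdac1 has 2.

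Territories differ, so counts were also set against the length of sequence nearer to a gene's coding TSSs than to any other gene's within 100 kb. Gse1 had 28.3 distal shared peaks per 100 kb of its 300.4 kb and Zfp217 24.1 per 100 kb of its 211.5 kb. Hdac7 came next, with 18.8 per 100 kb in only 74.6 kb, ahead of Bcor (17.5 in 279.8 kb) and Rere (12.9 in 372.1 kb). Rcor1 had 10.7 per 100 kb, Hdac1 8.93, Bcorl1 6.22 and Ncor1 4.08. Pooled over all coding genes the density was 4.30 per 100 kb, with Ncor1 just under it and the other 8 above. The median over coding genes was 2.795 per 100 kb, and all 9 lay above that.

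Gse1 lies on the plus strand of chromosome 8 from 120228456 to 120581390, and has 4 coding TSSs. Replicate 1 listed 105 distal peaks there and replicate 2 listed 110. Of its 85 shared peaks, 81 lay inside its own body, 4 upstream and 0 downstream. All 81 were in introns, and the 4 upstream lay in the overlapping annotation Gm20388. The 85 lay at a median of 40.9 kb from the nearest coding TSS of Gse1, in groups separated by gaps of up to 72.2 kb. The widest gap includes the stretch of the gene that is beyond the 100 kb limit. Joining peaks no more than 5 kb apart gave a run of 14 peaks in 17.2 kb from 120276456 to 120293605, a run of 11 in 16.6 kb from 120497776, and runs of 10 from 120399636 and from 120528336. The distal peak centred 9.40 kb past the second TSS, at 120497776 to 120497925, scored 126 and 128. The one shown above scored 125 and 133 and lay only 1.34 kb past the fourth TSS. In both replicates it shared a hotspot with promoter peaks of Gse1, and a promoter window of 2500 bp would take it in. Of the 85 peaks, 8 had scores above those of 90% of the list in each replicate.

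The 4 start sites of Gse1 were not alike. At the first, at position 120228456, the strongest peak scored 43 in replicate 1 and 44 in replicate 2, near the median score of all peaks (46 and 41). At the second, at 120488447, the scores were 93 and 109, at the third, at 120535857, 93 and 97, and at the fourth, at 120537429, 106 and 128. By its strongest peak, the first start site was thus the weakest in both replicates. A lesser peak at the second scored 42 in replicate 2, below the 44 at the first. In replicate 2 a single hotspot of 4292 bp, wider than 99.96% of hotspots in that list, covered the third and the fourth start sites and held 6 peaks. In replicate 1 the widest Gse1 hotspot, also at the fourth start site, was 2483 bp.

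The 100 kb limit mattered at Gse1. Between its first and second start sites, another 15 distal shared peaks of replicate 1 inside the gene lay between 103.8 and 127.9 kb from any Gse1 TSS and were assigned to no gene. They scored between 28 and 113, and their 14 counterparts in replicate 2 between 27 and 117. A further 3 at the 3′ end were nearer to the neighbouring gene Gins2. In all, 105 shared peaks lay in the Gse1 body, promoter peaks included, or 29.75 per 100 kb. Over all members and both replicates, the distal peak closest to a TSS was one of Gse1 at 1.02 kb, and the promoter peak nearest the 1000 bp boundary was one of Rere in replicate 1 at 0.985 kb, which had no counterpart. The farthest distal peak was one of Bcor in replicate 2 at 99.86 kb, also without a counterpart, and the farthest shared one was of Gse1 at 99.03 kb.

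Zfp217, on the minus strand of chromosome 2 from 170108643 to 170148103, showed another layout. Replicate 1 listed 69 distal peaks for it and replicate 2 listed 62. Of its 51 shared peaks only 11 lay in the gene, 32 lay upstream and 8 downstream, and 33 were intergenic. No other coding TSS lay within 100 kb of any of the 51, and the next nearest genes were Bcas1 for 34 and Tshz2 for 17. The body of Tshz2 held 5 of the 51. The upstream peaks came in tight clusters, with a median gap of 0.98 kb between neighbours over the gene. One cluster of 11 peaks covered 7.39 kb from 170152996 to 170160385, and one of 7 covered 4.55 kb from 170218556 to 170223105, about 76.0 to 80.4 kb upstream. Their highest scores in replicate 1 were 99 and 102, and the strongest distal peak of the gene, 42.1 kb upstream and shown above, scored 108 and 98. Of the 2 coding TSSs, the one at 170131220 had the strong promoter peak, and the one at 170142678 had no peak within 1000 bp in either replicate. The upstream distances given here are from 170142678, the nearer of the 2, and are longer from the open TSS at 170131220.

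**Figure D2:**
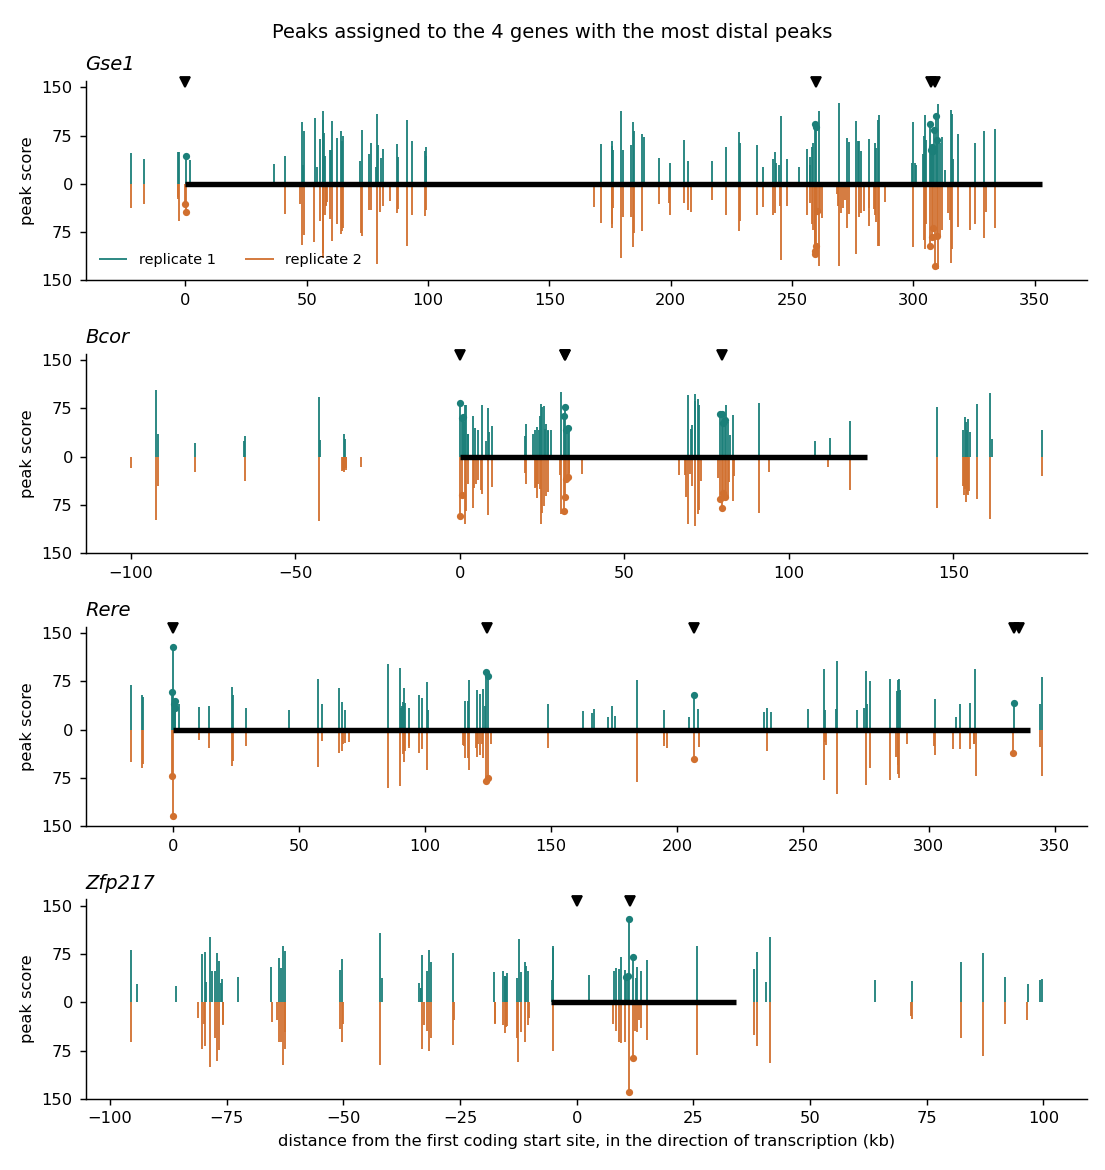
Peaks assigned to Gse1, Bcor, Rere and Zfp217, with distance from the first coding start site in kb (x axis, in the direction of transcription) and the deposited score (y axis, replicate 1 upward and replicate 2 downward). Circles mark promoter peaks, triangles coding start sites and the black bar the annotated gene, which for Zfp217 begins before its first coding start site. The peaks of Gse1, Bcor and Rere lie mostly in the gene body and those of Zfp217 mostly upstream.

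Bcor, on the minus strand of chromosome X from 12036740 to 12160355, had 65 distal peaks in the list of replicate 1 and 72 in that of replicate 2. Its 4 coding TSSs lie in 3 places, and all were open in both replicates. The strongest peak within 1000 bp scored 83 and 92 at the first site (12160355), 78 and 84 at the neighbouring pair (12128350 and 12128400), and 66 and 80 at the last (12080553). Replicate 2 was higher at each, and the order of the sites was the same in both. Of 11 promoter peaks in replicate 1, 10 had a counterpart in replicate 2. Of the 49 distal shared peaks, 34 lay in the gene, 6 upstream and 9 downstream, and 29 lay within 10 kb of a coding TSS. Those in the gene included 13 in 13.5 kb from 12127136 to 12140665, around and upstream of the middle TSS pair, and 10 in 8.41 kb from 12150496 to 12158905, downstream of the first TSS. A separate cluster of 7 in 8.29 kb lay 73.2 to 81.3 kb downstream of the last TSS, outside the gene. No other coding TSS was within 100 kb of any of the 49, the next gene being Atp6ap2. Only Bcor and Zfp217 were so isolated. Another coding TSS lay within 100 kb of 32 of 85 Gse1 peaks and 22 of 48 Rere peaks. The same held for all 14 of Hdac7, 10 of Rcor1, 8 of Ncor1, 7 of Bcorl1 and 2 of Hdac1.

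Bcorl1, the paralogue of Bcor on the plus strand of chromosome X from 48341358 to 48408049, had far fewer distal peaks, 13 in replicate 1 and 10 in replicate 2, with 7 shared. Only the second of its 4 coding TSSs, at 48343770, had a strong peak (114 and 124). The first, at 48341358, had peaks of up to 44 and 37, and the sites at 48361620 and 48369268 had none in either replicate. Its strongest distal peak lay 26.5 kb upstream (109 and 113), and the peaks 23.0 kb upstream (87 and 95) and 41.0 kb downstream of the nearest TSS (96 and 85) came next. The other 4 shared distal peaks scored 62 or less.

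Rere, on the plus strand of chromosome 4 from 150281646 to 150621966, had 70 distal peaks by replicate 1 and 66 by replicate 2. Of its 48 shared peaks 43 lay in the gene, all in introns, and 5 were intergenic. The distal peaks of Rere were weaker than those of the other 3 leading genes, with a median score of 54 in replicate 1 and 42 in replicate 2, and 4 of the 48 scored above 80% of the list in each replicate, where Gse1 had 23 of 85, Bcor 9 of 49 and Zfp217 6 of 51. They gathered before the second TSS, with 9 shared peaks in 15.8 kb beginning 39.4 kb upstream of it and 6 more in 7.49 kb ending 1.58 kb upstream of it. Of 5 coding TSSs, 4 were open in both replicates, with lower scores at each next site along the gene. The strongest scores were 129 and 135 at the first, 89 and 80 at the second, 53 and 46 at the third, 42 and 37 at the fourth, and the fifth had no peak.

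Hdac7, on the minus strand of chromosome 15 from 97792664 to 97844502, had fewer distal peaks than the 4 leading genes, but strong ones. It had 17 in replicate 1, 22 in replicate 2 and 14 shared, with medians of 82 in replicate 1 and 80 in replicate 2, the highest of the members with more than 2 such peaks. The peak shown above scored 138 and 131, above 99.7% and 96.9% of all peaks. It had the highest distal score of the 9 genes in replicate 1, and the Gse1 peak shown above, at 133, the highest in replicate 2. The next scored 118 and 119, at 97836576 to 97836725, and a peak 5.15 kb upstream of the gene scored 100 and 128. All 14 lay within 10 kb of a coding TSS, and 11 lay in the gene. Of 9 coding TSSs, the 4 at the 5′ end of the gene and the 2 near 97831494 were open, and the 3 farthest downstream had no peak within 1000 bp.

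Rcor1, on the plus strand of chromosome 12 from 111039351 to 111115901, had 17 distal peaks by replicate 1, 14 by replicate 2 and 10 shared. Its promoter peak had the highest score of any peak at the 9 genes. In replicate 2 the promoter lay in a hotspot of 4161 bp, wider than 99.95% of hotspots, with 9 peaks inside, against 1601 bp in replicate 1. Of its distal peaks, 1 stood apart, an intronic peak 32.2 kb into the gene at 111071916 to 111072065, which scored 119 and 116. The next scored 86 and 64, and the other 8 scored 66 or less in replicate 1 and 50 or less in replicate 2.

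Hdac1, on the minus strand of chromosome 4 from 129516104 to 129542713, had 2 distal peaks in each replicate, and both were shared. The first, 2.50 kb into the gene, scored 85 in replicate 1 and 69 in replicate 2, and the second, 6.78 kb upstream, scored 80 and 58. The second lies in an intron of the neighbouring gene Lck, which encodes the T cell kinase, 8.88 kb from the nearest Lck TSS. It was assigned to Hdac1 by distance. The CTCF word was found in both peaks, and the first also holds RUNX and SP/KLF words.

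Ncor1, on the minus strand of chromosome 11 from 62316426 to 62458541, had 10 distal peaks by replicate 1 and 7 by replicate 2, with 8 of the 10 shared. Only 3 of the 8 lay in Ncor1, and 5 lay upstream in the body of Pigl, whose promoter is shared with that of Ncor1: 3 promoter peaks of Ncor1 in replicate 1 and 1 in replicate 2 were also within 1000 bp of a Pigl TSS. The strongest distal peak, 36.5 kb upstream, scored 105 and 104, and 4 of the 8 lay within 1.65 kb there. Of 14 coding TSSs, the 4 at the 5′ end were open in both replicates and the other 10 had no peak. Over all members, 28 of 45 coding TSSs had a peak within 1000 bp in both replicates, beside 58.2% of all coding TSSs.

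**Figure D3:**
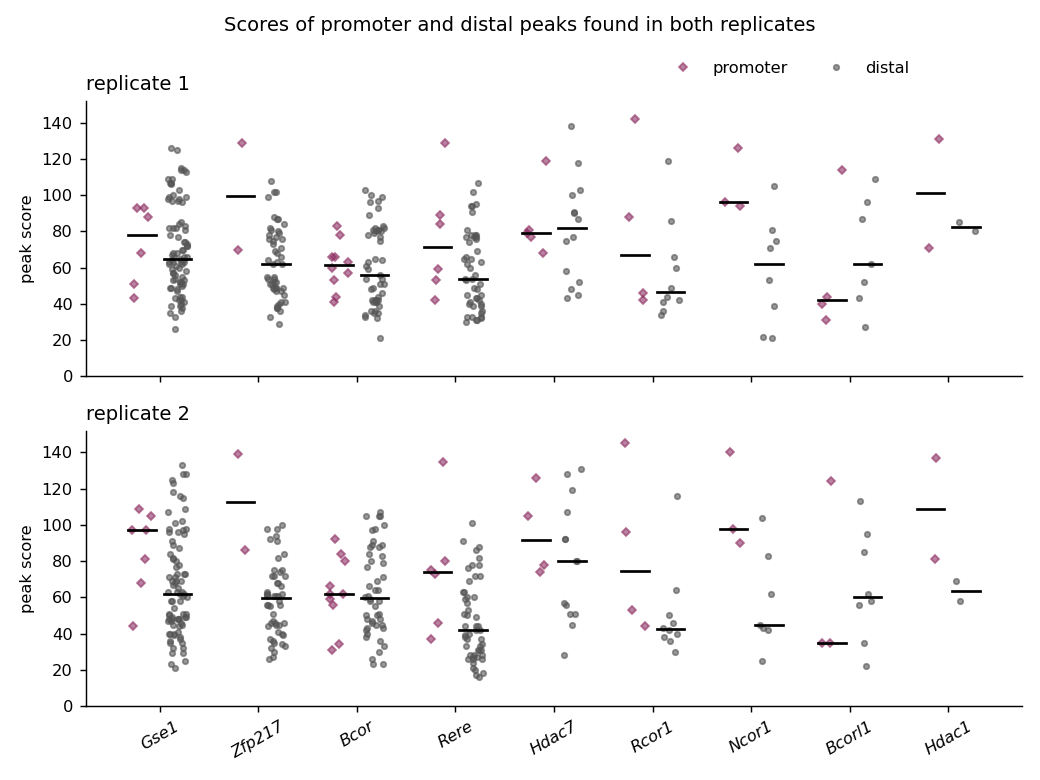
Deposited scores (y axis, 1 to 150) of promoter peaks (diamonds) and distal peaks (circles) found in both replicates, by gene (x axis), with replicate 1 in the upper and replicate 2 in the lower panel and medians as bars. The highest promoter scores are those of Rcor1, at 142 and 145, and the highest distal score in replicate 1 is that of Hdac7, at 138.

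Of 368 distal peaks in replicate 1, 74.5% overlapped a peak of replicate 2, beside 66.6% of all distal peaks, and of 365 in replicate 2, 75.1% overlapped a peak of replicate 1, beside 73.4%. The mean of the 2 directions was 74.8% (SD 0.433) for the members and 70.0% (SD 4.76) for all other distal peaks. Both directions count overlaps between the same 2 lists, so these SDs do not measure a spread between replicates. The share was 81.0% and 76.4% at Gse1, 75.4% and 66.7% at Bcor, 68.6% and 77.3% at Rere, and 73.9% and 80.6% at Zfp217. Which replicate had the higher share thus differed between genes. The members' peaks without a counterpart were weak, with a median score of 31 over 94 in replicate 1 and of 28 over 91 in replicate 2. Of these, 37 and 17 lay in a hotspot of the other replicate. Among all other distal peaks without a counterpart, 6410 of 39325 in replicate 1 and 2916 of 28592 in replicate 2 did so. The strongest such peak of the members, at Hdac7 in replicate 1, scored 93 and also lay in a hotspot of replicate 2.

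By position, 74.5% of the 274 distal shared peaks of the members were intronic, beside 52.4% of all distal shared peaks, 2.55% were in exons and 23.0% were intergenic. Of the 204 intronic peaks, 81 lay in introns of Gse1, which is 352.9 kb long, and 43 in introns of Rere, which is 340.3 kb long. A further 3 assigned to Gse1 lay in introns of Gm20388. Only 3 of the 274 lay within 1000 bp of the TSS of a long non-coding RNA gene, beside 3.34% of all distal shared peaks. They were at Gm13091 for Rere, and at A630075F10Rik and Gm17619 for Zfp217.

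The 4 leading genes differed in base composition. The Bcor distal shared peaks had a median of 9 CpG dinucleotides in 150 bp and a median GC content of 60.7%, where all distal shared peaks had medians of 2 and 50.7%. In counts of 8 or more CpG, a limit chosen after the values were seen, Bcor had 30 of 49 peaks, Gse1 9 of 85, Zfp217 5 of 51, Rere 3 of 48, Bcorl1 3 of 7 and Hdac7 2 of 14, and Rcor1, Ncor1 and Hdac1 had 0. All distal shared peaks reached it in 5.63% of cases. The CpG-rich peaks of Bcor were not only those at the edge of its promoters. Beyond 10 kb from any coding TSS, 11 of 20 Bcor peaks had 8 or more, beside 4.16% of all distal shared peaks at that distance. Of these 11, 5 lay in a single hotspot of 1853 bp in replicate 1, so they are not separate places. Gse1 was also GC-rich, at a median of 58.0%, but with a median of 3 CpG. The 42 promoter peaks of the members found in both replicates had medians of 11.5 CpG and 65.7% GC, beside 10 and 62% over all promoter shared peaks.

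**Figure D4:**
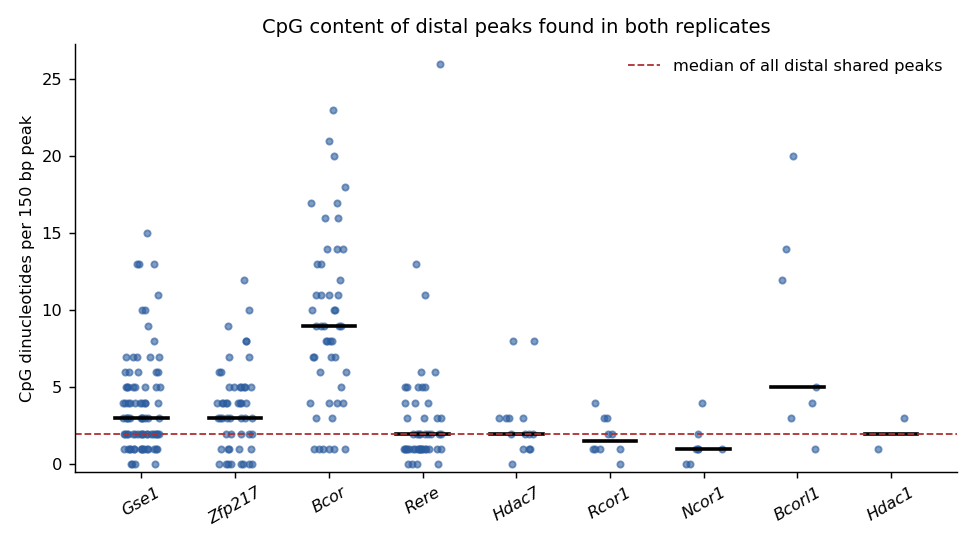
Number of CpG dinucleotides (y axis) in each distal peak found in both replicates, by gene (x axis), with each gene's median as a bar and the median of all distal shared peaks, 2, as a dashed line. The median of Bcor is 9, and that of Gse1 and Zfp217 is 3.

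The leading genes also differed from each other in consensus words. These shares are descriptions of single genes, with no test. The ETS word was in 22 of 48 Rere peaks (45.8%) and 21 of 51 Zfp217 peaks (41.2%), but in 30.6% at Gse1 and 32.7% at Bcor, beside 31.6% of all distal shared peaks. The RUNX word was in 17 of 48 Rere peaks (35.4%), 24.7% at Gse1, 14.3% at Bcor and 11.8% at Zfp217, beside 21.1% of all. Over all 274 distal shared peaks of the members, the RUNX word was in 58 (21.2%), near the share of all, and the ETS word in 97 (35.4%). RUNX and ETS factors regulate T lineage genes, but what these words do here was not tested. The E-box word CAGCTG was in 23 of 85 Gse1 peaks (27.1%), beside 16% of all, and the E-box word CACCTG in 23 as well, beside 21.8%. At Zfp217 each E-box word was in 5 of 51 peaks and at Bcor each was in 6 of 49. TCF/LEF was in 10 of 85 Gse1 peaks and 7 of 48 Rere peaks, beside 13.5% of all. The GATA word was in 0 of 85 Gse1 peaks and 4 of 51 Zfp217 peaks, beside 6.23%.

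The CTCF word was in 23 of the 274 peaks (8.39%), beside 16.4% of all distal shared peaks. It was in 0 of 49 Bcor peaks, 7 of 85 at Gse1, 4 of 51 at Zfp217 and 5 of 48 at Rere. The SP/KLF word, which is rich in G and C, was in 13 of 49 Bcor peaks (26.5%), 11 of 51 Zfp217 peaks and 4 of 7 Bcorl1 peaks, beside 7.58% of all. In the members' promoter peaks it was in 17 of 42, beside 41.3% of all promoter shared peaks. NFY was in 6 of 42, beside 20.4%, and NRF1 in 1 of 42, beside 4.93%. Median GC content was 60.7% at Bcor and 64% at Bcorl1 but also 50.7% at Zfp217, and its part in these shares was not tested.

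**Figure D5:**
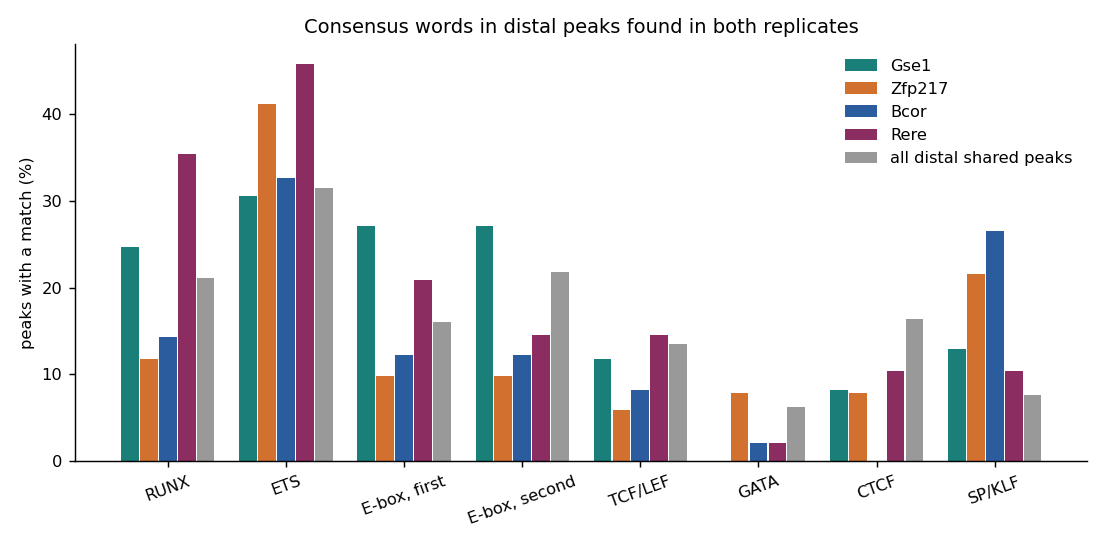
Percent of distal peaks found in both replicates that hold each consensus word (y axis, words along the x axis), for Gse1, Zfp217, Bcor, Rere and all distal shared peaks. The first E-box is CAGCTG and the second CACCTG. Rere has the highest bars for RUNX (35.4%) and ETS (45.8%), Gse1 for both E-boxes (27.1%) and Bcor for SP/KLF (26.5%).

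Scores of the same site ranked alike in both replicates. Across 251 distal peaks of the members that overlapped 1 to 1, Spearman's rho was 0.896, a description across sites that share their 2 libraries. The direction of the difference in deposited score varied among the genes. These are unadjusted scores, and the lists differ in median score (46 in replicate 1 and 41 in replicate 2). Replicate 2 scored higher at 3 of 45 Rere peaks, 10 of 45 Zfp217 peaks and 25 of 75 Gse1 peaks, but at 28 of 47 Bcor peaks, 8 of 14 Hdac7 peaks and 4 of 7 Bcorl1 peaks. Over all 72574 distal pairs, replicate 2 was higher in 21.6%, and over the 1352 on chromosome X, those of Bcor and Bcorl1 included, in 23.3%. The CpG count of the peaks is given beside this. Over all distal pairs, replicate 2 was higher in 17.0% of peaks with 0 or 1 CpG and in 52.9% of those with 12 or more. At Bcor it was higher at 18 of 29 peaks with 8 or more CpG and at 10 of 18 with fewer. Gse1 had 5 of 8 and 20 of 67, and Zfp217 3 of 5 and 7 of 40. Rere had 0 of 3 with 8 or more and 3 of 42 with fewer, and Hdac7 1 of 2 and 7 of 12. The part of base composition in the score difference was not tested.

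Each member's most alike genes were taken as the 2 nearest in distal shared peaks and territory length, on log10 scales, over both libraries. For Gse1 they were Prex1 and Sept9, each with 56 distal shared peaks, at a distance of 0.184 and 0.195, where no other member's 2 nearest were farther than 0.0744. For Zfp217 they were Smad3 (49) and Mtss1 (45), for Bcor Rptor (45) and Nck2 (44), and for Rere Maml3 (48) and Ppm1h (53). For Hdac7 they were the Notch receptor gene Notch1 and the kinase gene Pim1, with 14 each, and for Rcor1 Sbk1 and Osbpl11, with 10 each. For Ncor1 they were Arhgap15 and Lyzl1 (8 each), for Bcorl1 Agpat3 and Lrpap1 (7 each), and for Hdac1 Ndufv3 and Ltbp3 (2 each).

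In 8 lists of complexes and families there were 68 different genes, 59 of them outside the 9 members. Of these 59, 58 had a promoter peak in both replicates, 50 had at least 1 distal shared peak, and the median was 4. The exception at promoters was the class IIa deacetylase gene Hdac9, with no promoter peak in either replicate but 9 distal shared peaks. Among the BCOR and Polycomb partners, the median was 7.5 over 10 genes, and the non-members with the most were Skp1a (16), the deubiquitinase gene Usp7 (14), the CpG-binding demethylase gene Kdm2b (12) and Rybp (8). Among 6 genes of the nuclear receptor corepressor complexes, Ncor1 had 8, Tbl1xr1 had 22 and Tbl1x 11, and Hdac3 and Gps2 had 0.

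Of 15 genes around CoREST and LSD1, Gse1 and Zfp217 had the most, and of the non-members Phf21a had 10, Ctbp2 8 and Rcor2 and Ctbp1 4 each. The LSD1 gene Kdm1a had 2 and Hdac2, the paralogue of Hdac1, had 1, and both are named after their values were seen. Among 11 genes of the NuRD complex, Mta3 had 19, Mbd2 and Gatad2a 10 each and Rbbp7 8. Among 10 genes of the Sin3 complex, Suds3 had 11, Arid4a 5 and Sin3a and Ing2 4 each. Among 6 Groucho family genes, Tle3 had 24, Tle4 9, Aes 4 and Tle2 3. Of 11 histone deacetylase genes, Hdac4 had 32 in 391.9 kb, the most by count, but Hdac7 had the higher density, 18.8 per 100 kb against 8.17 for Hdac4. Hdac11 had 6, Hdac5 and Hdac8 4 each, and Atn1, the paralogue of Rere, had 2 in 13.7 kb.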

How the data were processed

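DNase-seq of newborn thymus was analysed from the peak and hotspot lists that the authors deposited for each of 2 replicates, called on mm10 for each library alone, per the text deposited with the files. Not given in the sources used here: aligner, callers, their thresholds and the number of reads. The deposited peak score is a whole number from 1 to 150 of unstated meaning, so it ranks peaks within a list. Differences of score between the 2 lists are descriptions of the deposited values. The deposited hotspot value is a −log10 of a q-value, capped at 100 in 45.9% and 43.5% of hotspots, and was not used for ranking. Peak intervals lay within the GRCm38 sequence on every main chromosome.

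Annotation was GENCODE M21. Peaks were compared by an overlap of at least 1 bp, classed by midpoint and assigned as the text describes, and sequences were read from GRCm38. With 1 group there was no comparison of conditions and no test. The overlap, nearest TSS and interval steps were tested on simulated data, and the word search was not. Members and gene lists were chosen with earlier results of these data known. The 9 members, the 2 most alike genes of each, the 4 leading non-members of each list and those without a promoter peak are named, apart from results not reported here. As alternatives, a promoter window of 2500 bp, the 50% of peaks with the higher scores, an overlap that is reciprocal at 50%, TSSs of all biotypes, a limit of 50 kb, hotspots for peaks, each replicate alone and, added after seeing the data, the lists without peaks whose score is written with a decimal point were tried. The scripts ran under Python 3.11.15 with pandas 2.3.3, numpy 2.4.6, matplotlib 3.10.9 and scipy 1.17.1.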

Additional observations from a re-analysis of the deposited data

How the results depend on the processing

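All 9 members kept a promoter peak under each of the 9 alternatives, also in each replicate alone. The distal shared peaks of the members, 274, ranged from 184 to 272 under the alternatives that keep both replicates. In each replicate alone no overlap could be asked, so all its distal peaks were counted, 368 in replicate 1 and 365 in replicate 2. Gse1 had the most in 9 of 9. Of 81 counts of single genes, those of all distal peaks in each replicate alone included, 71 stayed within 1.5 times. The others were 46 for Gse1 and 31 for Zfp217 with a limit of 50 kb, 32 for Bcor, 24 for Rere, 5 for Ncor1 and 4 for Rcor1 with the stronger 50% of peaks, 8 for Hdac7 with a window of 2500 bp, 22 for Hdac7 in replicate 2 alone, and 13 for Bcorl1 and 17 for Rcor1 in replicate 1 alone. The share of members' distal peaks with a counterpart, 74.8%, was 67.7% with a reciprocal overlap, 83.4% with the stronger 50%, 80.1% with hotspots, 73% with 50 kb and 77.85% without scores written with a decimal point. The intronic share, 74.5%, was 78.65% with 50 kb, 71.2% with 2500 bp, 75.5% with a reciprocal overlap, and 72.3% to 73.6% in the replicates alone. The causes were not tested. No paired analysis was possible because the series holds 1 group. Depth is unknown, so a missing peak means only that none was listed.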
